A study of Mus musculus with 6 samples.

Results

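The p53 pathway and its Gadd45 branch were followed through 10 genes, chosen by name as Trp53, its inhibitors Mdm2 and Mdm4, its target genes Cdkn1a, Ccng1 and Zmat3, the 3 Gadd45 genes, and Ppp1r15a, whose protein is also called GADD34. All 10 were listed in the count table of 27179 genes, and 8 were in the normalized table of 12179 genes. The same 8 passed the filter on low counts, out of 8195 genes tested, while Gadd45b and Gadd45g did not. RNA-Seq had been performed on long-term hematopoietic stem cells (LT-HSCs, sorted from bone marrow as CD150+CD48-LSK cells) of C57BL/6 mice at 8 weeks of age, with 3 libraries from WT mice and 3 from mice heterozygous for Foxm1 (Foxm1 HET). Foxm1 encodes a transcription factor of the cell cycle. The titles of the Foxm1 HET libraries name 1 floxed allele and no Cre driver. The study's methods use the name Foxm1 HET, in another assay, for Tie2-Cre Foxm1 fl/+ mice, in which Cre is active in endothelial and blood cells. Mx1-Cre mice were also made, and the account of the RNA-Seq itself names no driver. The labels call the controls WT, where other assays of the study used Foxm1 fl/+ mice without Cre, and name no treatment for either group.

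p53, the protein of Trp53, is a transcription factor that is kept low by Mdm2 and Mdm4 and accumulates after DNA damage and other stress, when it induces genes that stop the cell cycle, repair DNA or start cell death. In hematopoietic stem cells it is known for keeping cells quiescent and for limiting their number. Gadd45 proteins, induced by growth arrest and DNA damage, bind cell cycle and stress kinases, and GADD34 restores protein synthesis after stress by recruiting a phosphatase to the translation factor eIF2α.

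None of the 8 tested genes differed between Foxm1 HET and WT LT-HSCs by edgeR's quasi-likelihood test, with 0 past an adjusted p of 0.05 and 0 past an unadjusted p of 0.05. Over all 8195 tested genes, 0.329% passed the adjusted threshold and 6.03% the unadjusted one. Ppp1r15a was the 1 gene of the 8 whose 3 Foxm1 HET values all lay on 1 side of the 3 WT values, being lower, and 8.68% of all tested genes had such non-overlapping values. In the authors' normalized table the genotypes of Ppp1r15a overlapped. For every tested gene but Ppp1r15a, the genotype means of log2 CPM differed by less than the SD of the WT replicates.

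The promoters of 3 genes are shown, chosen among those with a match to a binding motif that was searched for. The windows hold 250 bases before the annotated transcription start in RefSeq (GRCm38.p6), read on the strand of the gene, and were searched on both strands for a p53 core pair (CATG, any 6 bases, CATG), the cyclic AMP response element TGACGTCA, and the C/EBP-ATF response element TGATGNAA bound by ATF4 and CHOP. The motifs were picked after the expression values were known, and a match describes letters and not binding. Capitals mark the match.
Cdkn1a, chr17:29090729-29090978, plus strand: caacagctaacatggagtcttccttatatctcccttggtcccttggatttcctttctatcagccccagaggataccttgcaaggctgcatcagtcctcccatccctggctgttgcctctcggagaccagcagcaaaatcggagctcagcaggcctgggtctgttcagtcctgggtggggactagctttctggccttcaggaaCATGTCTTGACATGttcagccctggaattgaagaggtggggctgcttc
Ppp1r15a, chr7:45526269-45526518, minus strand: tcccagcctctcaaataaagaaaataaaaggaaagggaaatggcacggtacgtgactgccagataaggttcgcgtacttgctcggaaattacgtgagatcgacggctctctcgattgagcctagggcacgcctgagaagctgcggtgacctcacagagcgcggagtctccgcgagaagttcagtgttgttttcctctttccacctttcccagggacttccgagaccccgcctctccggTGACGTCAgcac
Atf3, chr1:191183334-191183583, minus strand: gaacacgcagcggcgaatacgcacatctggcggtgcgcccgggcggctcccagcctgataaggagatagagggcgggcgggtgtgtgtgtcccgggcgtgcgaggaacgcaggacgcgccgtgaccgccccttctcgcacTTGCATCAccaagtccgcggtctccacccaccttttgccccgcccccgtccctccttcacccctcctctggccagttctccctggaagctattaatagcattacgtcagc
The p53 core pair of Cdkn1a began 48 bases upstream of the first of 2 annotated starts, and 0.49% of 32851 promoter windows of this length held one. The window before the other start of Cdkn1a, chr17:29093519-29093768, held no match to the 3 motifs. In Ppp1r15a the cyclic AMP response element began 12 bases upstream, and 1.55% of the windows held one. The match in Atf3, which reads as the reverse complement of TGATGNAA, began 110 bases upstream, and 3.45% of the windows held that motif. Windows of the members other than Zmat3, and of Atf3 and Ddit3, were searched. Among the members not shown, Gadd45g also held TTGCATCA, 101 bases upstream, and no other window searched held a match.

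The libraries held 14573002 to 25798509 counted reads, and 4467 to 9894 genes had at least 10 reads in a library, with Foxm1 HET replicate 2 lowest in both. Across tested genes, log2 CPM (reads divided by the TMM-scaled library size, with a prior count of 2) correlated at r of 0.289 to 0.327 between WT libraries, 0.358 to 0.441 between Foxm1 HET libraries and 0.306 to 0.443 between genotypes, a description over genes, which are not independent replicates. In WT, 34.1% of tested genes had a library with 3 reads or fewer and another with more than 100, and in Foxm1 HET 38.8% did. WT replicates 1 to 3 held 1182, 2615 and 2942 reads of Foxm1 itself, Foxm1 HET replicates 1 to 3 held 659, 5 and 742, the order in which all read counts are given, with each Foxm1 HET library below each WT library (log2 fold change -3.30, SE 2.33, edgeR adjusted p = 0.961). Of 12 LT-HSC markers, 7 to 12 had more than 3 reads in a library, but Slamf1, which encodes the sorted CD150, had 0 reads in WT replicate 3 and in Foxm1 HET replicate 2. Neutrophil markers, 7 of 7 above 3 reads in every library, summed to 4830 to 18440 CPM in WT and 727 to 15890 CPM in Foxm1 HET. Erythroid markers summed to 135 to 1600 CPM with Hba-a1 at 0, macrophage markers to 462 to 4937 CPM with C1qa at 0, B cell markers to 269 CPM at most with Cd79a, Ebf1 and Ms4a1 at 0, T cell markers to 126.5 CPM at most with Cd3d and Cd3g at 0, and megakaryocyte markers to 10.5 CPM at most. In bulk RNA, fewer cells of a type and less RNA per cell cannot be told apart.

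Trp53 lies on chromosome 11 (GRCm38, 69580359-69591873, plus strand, 11 exons). The WT libraries held 1716, 230 and 17886 of its reads, and the Foxm1 HET libraries 5131, 1693 and 11046. Every library thus held at least 230 Trp53 reads, but the WT replicates spread from the lowest to the highest of the 6 libraries and enclosed all 3 Foxm1 HET values. Mean log2 CPM came to 6.59 ± 3.39 in WT, against 7.72 ± 0.56 in Foxm1 HET (SD, n = 3 each, exact two-sided permutation p = 0.7, where 3 against 3 cannot go below 0.1). The fitted log2 fold change, Foxm1 HET over WT, was -0.87 (SE 1.58, 95% interval -3.97 to 2.23, edgeR adjusted p = 0.998). The difference of the means and the fitted value thus had opposite signs, and without WT replicate 3 the fitted value was 2.29. A processed copy, Trp53-ps, shares sequence with the transcript, and 3.95% of the 50-base stretches of Trp53 transcripts occur elsewhere in the transcriptome. This share was larger for Gadd45a (15.6%), Cdkn1a (8.49%) and Mdm4 (7.31%).

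Mdm2, the ubiquitin ligase that marks p53 for degradation and is itself a p53 target, had 1046, 424 and 5 reads in WT against 3873, 730 and 1592 in Foxm1 HET (chromosome 10, 117688905-117710716, minus strand, 12 exons). WT replicate 3, the library with the most Trp53 reads, was the one nearly without Mdm2 reads, and WT replicate 1 lay above Foxm1 HET replicate 3 on the log2 CPM scale (5.57 against 5.25), so the genotypes overlapped. The level was 2.82 ± 3.67 log2 CPM in WT and 6.25 ± 0.86 in Foxm1 HET (n = 3 each, exact permutation p = 0.2). The fitted log2 fold change was 1.93 (SE 2.31, 95% interval -2.61 to 6.46, edgeR adjusted p = 0.998), and it was 3.16 without WT replicate 1 and 1.32 without WT replicate 3.

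Mdm4, the partner of Mdm2 that binds p53 and blocks its activity, had 1555, 1495 and 19 reads in WT against 3329, 40 and 2096 in Foxm1 HET (chromosome 1, 132989845-133025348, minus strand, 12 exons). It was low in WT replicate 3, as Mdm2 was, and also in Foxm1 HET replicate 2, where Mdm2 was not low. The other 4 libraries lay within 5.65 to 6.45 log2 CPM, with WT and Foxm1 HET values interleaved. The group levels were 4.18 ± 3.32 and 4.92 ± 2.01 log2 CPM (n = 3 each, exact permutation p = 0.8), and the fitted log2 fold change was 0.06 (SE 2.30, 95% interval -4.45 to 4.57, edgeR adjusted p = 0.998). Its sign turned to -0.038 with RLE scaling.

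Cdkn1a, the best known p53 target, encodes the cyclin-dependent kinase inhibitor p21 (chromosome 17, 29090986-29100722, plus strand, 4 exons). WT libraries held 301, 39 and 0 reads against 349, 47 and 264 in Foxm1 HET. The 0 was in WT replicate 3, where 3 reads would have been 0.188 CPM and where Trp53 was highest. The 3 Foxm1 HET libraries lay close together, at 3.21, 2.88 and 2.68 log2 CPM, inside the range of the WT libraries, whose highest was 3.78. In the deposited normalized log2 table they were at 2.54, 4.34 and 2.04, and so not close together. There Foxm1 HET replicate 2 lay above every WT library, the highest of which was 3.64. The group levels were 0.34 ± 3.72 and 2.92 ± 0.27 log2 CPM (n = 3 each, exact permutation p = 0.4), and the fitted log2 fold change was 0.57 (SE 2.97, 95% interval -5.25 to 6.39, edgeR adjusted p = 0.998).

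Ccng1, cyclin G1, is a p53 target that recruits a phosphatase to Mdm2 (chromosome 11, 40748552-40755286, minus strand, 6 exons). It had 40, 1653 and 1407 reads in WT against 1893, 511 and 2054 in Foxm1 HET. WT replicate 1 stood apart at 0.92 log2 CPM, and the other 5 libraries lay between 5.62 and 6.46. The group levels were 4.52 ± 3.13 and 5.85 ± 0.39 log2 CPM (n = 3 each, exact permutation p = 0.9), and the fitted log2 fold change was 0.13 (SE 2.20, 95% interval -4.19 to 4.44, edgeR adjusted p = 0.998).

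Zmat3, a p53 target that encodes a zinc finger RNA-binding protein, had 1634, 6 and 3159 reads in WT against 8110, 5 and 291 in Foxm1 HET (chromosome 3, 32334792-32365665, minus strand, 6 exons). Each genotype held 1 library with 6 reads or fewer beside one with 3159 (WT) or 8110 (Foxm1 HET). The group levels were 4.10 ± 4.93 and 3.44 ± 4.02 log2 CPM (n = 3 each, exact permutation p = 1). The fitted log2 fold change was -0.30 (SE 2.02, 95% interval -4.25 to 3.65, edgeR adjusted p = 0.998), and its sign turned with upper-quartile scaling (0.20) and with library sizes alone (0.55). For none of these 3 targets did the genotypes differ beyond the spread of the replicates, and their low libraries were not the same: WT replicate 3 for Cdkn1a, WT replicate 1 for Ccng1, and replicate 2 of each genotype for Zmat3.

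**Figure D1:**
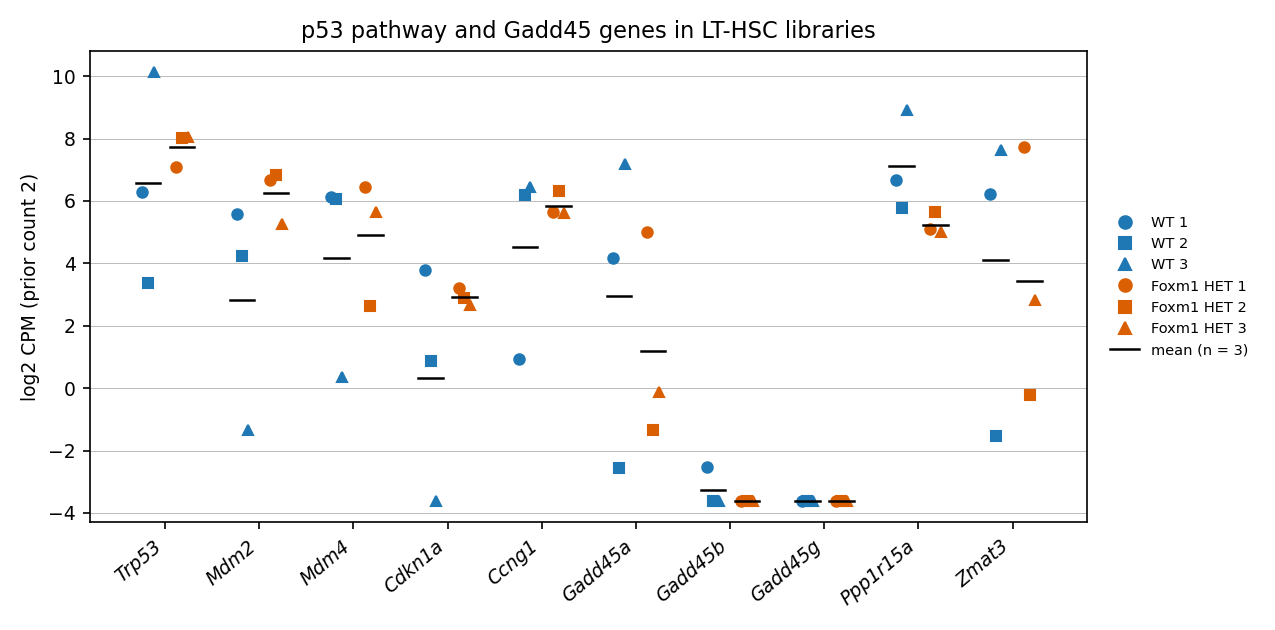
Level of each of the 10 genes as log2 CPM (prior count 2) in the 3 WT (blue) and 3 Foxm1 HET (orange) libraries, with the replicate number as the symbol and the mean of 3 as a bar. Only Ppp1r15a has all Foxm1 HET points below all WT points, by 5.64 against 5.79 at the nearest pair, and Gadd45b and Gadd45g lie at the foot of the scale.

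Of the Gadd45 family, Gadd45a was read in most libraries and the other two hardly at all. Gadd45a, a p53 target that binds PCNA and the kinase Map3k4, had 400, 2 and 2336 reads in WT against 1220, 2 and 35 in Foxm1 HET (chromosome 6, 67035096-67037407, minus strand, 4 exons). On the log2 CPM scale its WT libraries, from -2.56 to 7.19, enclosed its Foxm1 HET libraries, from -1.36 upwards, and replicate 2 was the lowest in each genotype. Levels were 2.94 ± 4.99 log2 CPM in WT and 1.18 ± 3.37 in Foxm1 HET (n = 3 each, exact permutation p = 0.8). The fitted log2 fold change was -2.31 (SE 2.61, 95% interval -7.43 to 2.82, edgeR adjusted p = 0.998), and without WT replicate 3 it was 0.25. The antisense gene E230016M11Rik covers 19.4% of the exon bases of Gadd45a, and since the strand setting of the counting is not given, reads of the pair may be mixed.

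Gadd45b, which responds to TGF-beta and inflammatory signals, had 2 reads in WT replicate 1 and 0 in the other 5 libraries (chromosome 10, 80930091-80932204, plus strand). Gadd45g, a cytokine-induced member, had 0 reads in all 6 (chromosome 13, 51846675-51848475, plus strand). A count of 0 allows a level of up to 3 reads, which was 0.0717 to 0.463 CPM depending on the library and covers counting error only. Neither gene was tested, and no fold change is given.

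Ppp1r15a lies on chromosome 7 (45522917-45526268, minus strand, 3 exons), and none of its exon bases or 50-base stretches was shared with another gene. It had 2234, 1247 and 7779 reads in WT against 1293, 323 and 1333 in Foxm1 HET. On the log2 CPM scale the WT libraries were at 6.66, 5.79 and 8.93 and the Foxm1 HET libraries at 5.09, 5.64 and 4.997. Each Foxm1 HET library lay below each WT library, though the nearest pair, WT replicate 2 and Foxm1 HET replicate 2, were 5.79 and 5.64. In the deposited normalized log2 table this pair was reversed, at 5.50 and 5.56, so that the separation was lost there. Levels were 7.12 ± 1.62 and 5.24 ± 0.35 (n = 3 each, exact permutation p = 0.1, the smallest possible). The fitted log2 fold change was -2.47 (SE 1.93, 95% interval -6.26 to 1.31, edgeR adjusted p = 0.982). It kept its sign under every alternative run, from -2.95 to -1.05, and -1.05 was the value without WT replicate 3. Neutrophil markers summed to 10390, 4830 and 18440 CPM in WT and 5072, 15890 and 727 CPM in Foxm1 HET, with the highest sum in the same library as the highest Ppp1r15a, and 9 genes of the immediate-early response, which follow many stimuli, summed to 9359 to 10930 CPM in WT and 4912, 28810 and 4863 CPM in Foxm1 HET. Their part in the Ppp1r15a values was not tested.

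**Figure D2:**
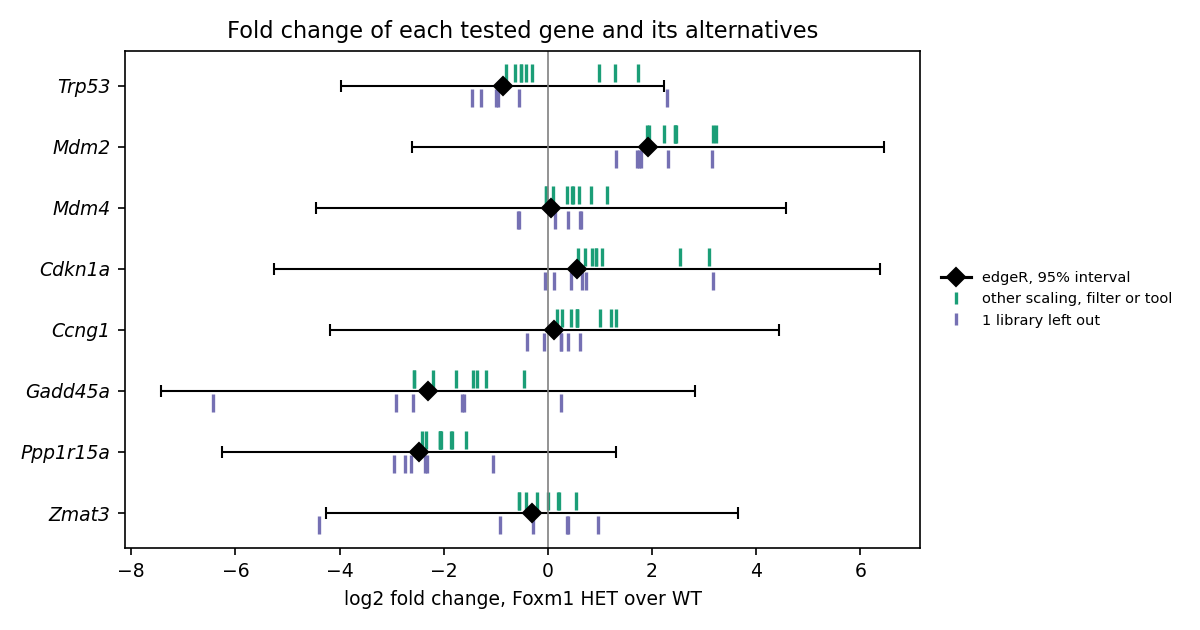
Fitted log2 fold change, Foxm1 HET over WT, for the 8 tested genes (diamond, with a 95% interval derived from the edgeR test). Green ticks are other scalings, filters and tools, and purple ticks are fits with 1 library left out. All 8 intervals include 0, and the ticks of Mdm2 and Ppp1r15a stay on 1 side of 0.

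Relative to the median of all tested genes, which was -0.26 with TMM, -0.13 with RLE, 0.14 with upper-quartile scaling and 0.10 with library sizes alone, the order of the fold changes was similar. Mdm2 was above that median by 1.81 to 2.57 log2 units over these 4 scalings, and Ppp1r15a lay below it, at -2.21 to -1.93. The relative value of Gadd45a was -2.44 to -1.46. Zmat3 ran from -0.43 to 0.45 and so had no fixed side. Of the 8 fitted values 4 were positive and 4 negative, with a median of -0.12 beside -0.26 over all tested genes.

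Levels were compared between genes only as RPKM (reads scaled to exon length and library size). Trp53 had the highest median over the 6 libraries, 106 RPKM (range 5.45 to 599), followed by Ppp1r15a at 22.5 (13.7 to 208), Ccng1 at 17.6 (0.52 to 25.2), Mdm4 at 16.7 (0.34 to 25) and Mdm2 at 14.1 (0.10 to 37.3). Gadd45a at 7.73 RPKM (0.07 to 119), Zmat3 at 5.19 (0.03 to 27.3) and Cdkn1a at 3.35 (0 to 6.72) came last among the tested genes. Trp53 had the highest RPKM in 4 of 6 libraries and exceeded Cdkn1a in 6 of 6 and Mdm2 in 5 of 6. Neighbours in the order had the higher value on the stated side in only 3 to 5 of the 6 libraries, so that no adjacent pair was separated beyond the spread. Within Foxm1 HET, Trp53 lay at the 96.2, 91.2 and 99 percentiles of the tested genes in RPKM, and within WT at the 86.2, 51.8 and 99.1 percentiles.

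**Figure D3:**
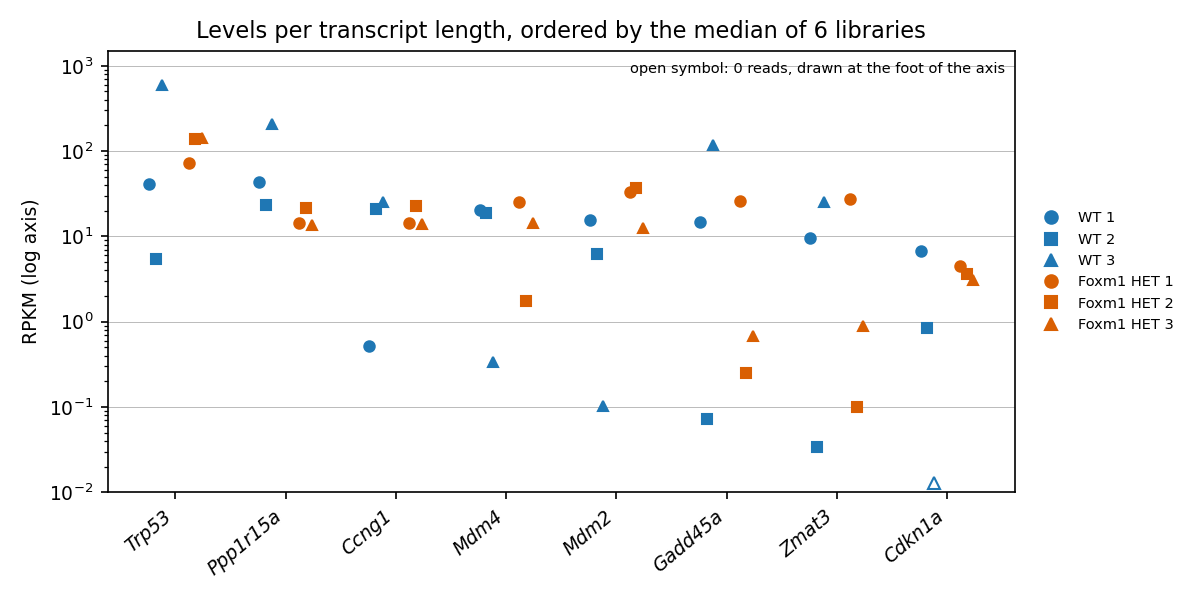
RPKM (log axis) of the 8 tested genes in the 6 libraries, ordered by the median, with colours and symbols for genotype and replicate. Trp53 leads with a median of 106 RPKM, and the ranges of neighbouring genes overlap widely.

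The spread within genotypes was itself uneven. With TMM scaling, all 8 tested genes had a smaller SD of log2 CPM in Foxm1 HET than in WT, and 54.3% of all tested genes did. The SD of Cdkn1a in Foxm1 HET, 0.27, was at the 1.2 percentile of all tested genes, that of Ppp1r15a at 1.9, that of Ccng1 at 2.27, that of Trp53 at 4.43 and that of Mdm2 at 9.62. In WT these 5 genes were at the 24.5 to 63.8 percentiles. Mdm4 was at the 32.4 percentile in Foxm1 HET and the 55.9 percentile in WT. Zmat3 and Gadd45a spread widely in both genotypes, at the 82.3 and 64.5 percentiles in Foxm1 HET and the 87.3 and 88.2 percentiles in WT. These percentiles are a description, with no test of the difference in spread, and they hold for the TMM scaling. The TMM factors of the Foxm1 HET libraries were 1.543, 0.4529 and 1.671. In the deposited normalized table Cdkn1a was at 2.54, 4.34 and 2.04 in Foxm1 HET, so its closeness was not kept there. Zmat3 ranged more widely there in Foxm1 HET (0.95 to 6.48) than in WT (0.85 to 5.47). WT replicate 3 held the highest value of 4 of the 8 genes (Trp53, Ccng1, Gadd45a and Ppp1r15a) and the lowest value of 3 others (Mdm2, Mdm4 and Cdkn1a), where it was highest for 20.8% and lowest for 29% of all tested genes.

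Of 24 regulators of p53, the kinases, ubiquitin ligases, acetyltransferases and ribosomal proteins that act on it, 21 were tested, 11 of them higher and 10 lower in Foxm1 HET, at a median log2 fold change of 0.45, which fell below 0 when any 1 of the Foxm1 HET libraries was left out (-0.58 without replicate 3). None passed the adjusted threshold and 1 the unadjusted one, beside 0.329% and 6.03% of all tested genes. Ppm1d, the phosphatase WIP1 that switches p53 signalling off, had 32, 3 and 1 reads in WT against 1232, 2 and 5217 in Foxm1 HET (log2 fold change 6.57, SE 3.32, edgeR adjusted p = 0.81), with replicate 2 of Foxm1 HET as low as WT. The acetyltransferase gene Ep300 had 10408, 14777 and 1532 reads against 9622, 27454 and 32691 (2.11, SE 1.38), and the damage kinase gene Atr had 5512, 306 and 312 reads against 418, 2 and 640 (-3.41, SE 2.47). Cdkn2a, which encodes the Mdm2 inhibitor ARF, and the p53 relatives Trp63 and Trp73 had 0 reads in all libraries.

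The p53 target genes beyond the 10 were taken from a list of 22 for arrest and repair and a list of 20 for death and metabolism. Of these 42 genes, 19 were tested, 4 with a positive and 15 with a negative fitted fold change (8 and 11 with library sizes alone). None, 0 of them, passed the adjusted threshold. Of all tested genes, 45.4% had a positive fold change with TMM and 52% with library sizes alone. Among the 23 not tested, 8 had 3 reads or fewer in every library, of which Phlda3, Rprm, Fas, Eda2r, Sco2 and Gls2 had 0 throughout. The death genes Bax (81 reads in Foxm1 HET replicate 1 and 0 elsewhere), Bbc3 (18 reads at most) and Pmaip1 (5 reads at most) were hardly read at all.

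Of the arrest and repair list, 12 genes could be tested, 3 higher and 9 lower (median log2 fold change -0.72, which turned to 0.06 with library sizes alone and 1.06 without WT replicate 3), and 2 passed an unadjusted p of 0.05 in opposite directions. That unadjusted threshold was passed by 6.03% of all tested genes. Gfi1, a repressor that restrains HSC proliferation, had 6, 2 and 118 reads in WT against 786, 2053 and 36 in Foxm1 HET (5.45, SE 2.65, edgeR adjusted p = 0.776). Ndn, a growth suppressor known for quiescent HSCs, had 15, 243 and 13 reads in WT against 1, 0 and 0 in Foxm1 HET (edgeR adjusted p = 0.773). It was the 1 gene of the 12 tested with non-overlapping genotypes, beside 8.68% of all tested genes. All Foxm1 HET libraries of Ndn were at or under the floor of 3 reads, and 2 of the WT libraries were within 13 to 15 reads. Plk2, a stress kinase, had 3717, 206 and 181 reads against 30, 1 and 653 (-3.50, SE 2.73).

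Of the death and metabolism list, 7 genes could be tested, 1 higher and 6 lower, at a median of -1.78, which ranged from -3.64 to -0.99 with 1 library left out and was -3.64 without Foxm1 HET replicate 3. Trp53i11 had 187, 9957 and 19605 reads in WT against 670, 12 and 3763 in Foxm1 HET (-3.94, SE 1.78, edgeR adjusted p = 0.715). Pidd1, the scaffold of a caspase-activating complex, had 128, 24 and 15321 reads against 468, 11 and 2896 (-3.53, SE 1.90), most of the WT reads being from replicate 3. Bid, which links death receptors to mitochondria, had 84, 1 and 810 reads against 73, 1 and 72 (-3.83, SE 3.25), and 16.4% of its 50-base stretches also occur in Bcl2l13. In each of these 3 genes the genotypes overlapped.

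All 13 partners of the Gadd45 proteins were tested, with 6 higher and 7 lower (median -0.64, and 0.52 without WT replicate 3), 3 past an unadjusted p of 0.05 (2 higher and 1 lower) and 0 past the adjusted threshold. Over all tested genes, 6.03% passed that unadjusted threshold and 0.329% the adjusted one. Map2k4, a kinase above JNK and p38, had 590, 3691 and 47 reads in WT against 2604, 25349 and 1961 in Foxm1 HET (4.38, SE 1.61, edgeR adjusted p = 0.39). Map2k7, the second kinase above JNK, had 952, 172 and 388 reads against 6272, 7348 and 279 (4.12, SE 1.86, edgeR adjusted p = 0.713), and 32.8% of its 50-base stretches also occur in Gm49320. Neither had non-overlapping genotypes. Ccnb1, cyclin B1 and the kinase partner that Gadd45a inhibits, did, with 258, 686 and 195 reads in WT against 8, 0 and 141 in Foxm1 HET (-3.90, SE 3.26, edgeR adjusted p = 0.982), and is named after its values were seen. It was the 1 non-overlapping gene of the 13 partners, beside 8.68% of all tested genes.

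The integrated stress response, in which kinases phosphorylate eIF2α and the factors ATF4, CHOP and ATF3 change transcription until GADD34 reverses it, was followed through 16 further genes. Of 13 tested, 6 were higher and 7 lower (median -0.56, 0.07 with library sizes alone and 0.24 without WT replicate 2), with 0 past the adjusted or unadjusted threshold and 2 with non-overlapping genotypes, Atf3 and Ddit3, both lower in Foxm1 HET. Among all tested genes, 8.68% had non-overlapping genotypes. Atf3 had 6104, 6228 and 4524 reads in WT, at 8.11, 8.11 and 8.14 log2 CPM, against 1436, 157 and 34 reads in Foxm1 HET, at 5.24, 4.60 and -0.16. The WT libraries, which differed widely for the p53 genes, lay close to each other here (log2 fold change -3.73, SE 1.97, edgeR adjusted p = 0.854). In the deposited normalized log2 table the WT libraries were less close, at 8.52, 8.07 and 7.68. The Foxm1 HET libraries were at 5.69, 5.14 and 0.64 there. Ddit3, which encodes CHOP, had 149, 133 and 996 reads against 24, 0 and 18 (-6.08, SE 3.55, edgeR adjusted p = 0.921), and 7.81% of its exon bases are shared with Mars1.

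Ppp1r15b, the constitutive counterpart of Ppp1r15a, had 26907, 1796 and 3670 reads in WT against 2334, 66 and 3554 in Foxm1 HET (-3.29, SE 1.74, edgeR adjusted p = 0.856). WT replicate 2 and Foxm1 HET replicate 3 overlapped, at 6.31 and 6.41 log2 CPM. Of 9 early response genes, which include Atf3, 5 were higher and 4 lower (median 0.08, and 0.84 with RLE, 0.35 with upper-quartile scaling and -0.085 with library sizes alone), 0 passed either threshold and Atf3 alone was non-overlapping. Non-overlapping genotypes were seen in 8.68% of all tested genes. Junb had 337, 649 and 587 reads against 485, 1292 and 49, and Zfp36 had 28060, 30917 and 75018 against 47774, 63650 and 49762.

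**Figure D4:**
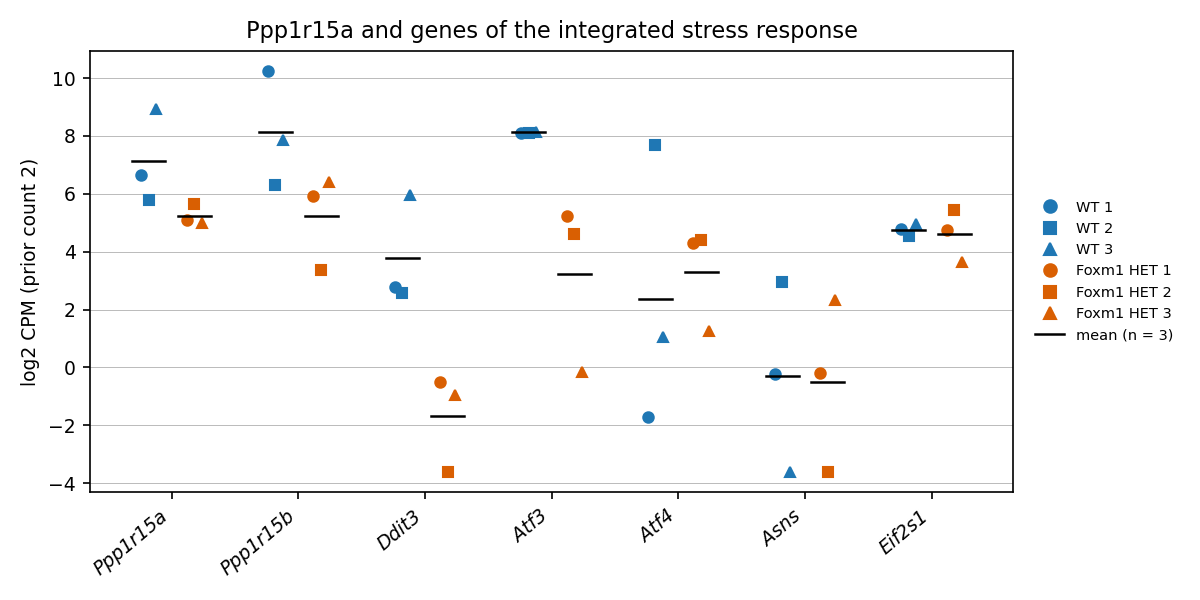
Level as log2 CPM (prior count 2) of Ppp1r15a and 6 genes of the integrated stress response in the 3 WT (blue) and 3 Foxm1 HET (orange) libraries, with the mean of 3 as a bar. Ppp1r15a, Ddit3 and Atf3 have all Foxm1 HET points below all WT points, and the other 4 overlap. Atf4, Asns and Eif2s1 were added by hand to the 3 genes of the list with the smallest unadjusted p. Of the 13 tested genes of the list, 2 had non-overlapping genotypes, beside 8.68% of all tested genes.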

How the data were processed

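Raw counts of reads by gene for 6 libraries were deposited by the authors, with a normalized table of log2 values whose method is not stated. Per the labels, reads were aligned with STAR 2.7.2b to GRCm38 and limma was used; the counting program and strand setting are not given in the sources used here. The labels name a stranded total RNA kit and the methods a Clontech kit. Total counts were 14573002 to 25798509 per library. There are no molecular identifiers, so limits from counts cover counting error only. Per-sample columns matching no sample numbered 0.

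Counts were tested here with edgeR 4.0.16 (filterByExpr, TMM, glmQLFit, glmQLFTest; limma 3.58.1, R 4.3.3) without covariates, since the methods name no test or covariate for the RNA-Seq, with Benjamini-Hochberg adjustment over 8195 genes at 0.05. The deposited log2 values served as 1 alternative. The edgeR test gives no SE, so SEs were derived from the fitted fold change and its F statistic. The 95% intervals were built from these SEs and a t distribution, and both are approximate. Single genes were compared by exact two-sided permutation of mean log2 CPM (prior count 2, n = 3 each, smallest p 0.1). The replicates are separate mice according to the methods. RPKM used the exon length in the count table. Scripts were tested on simulated data that varied far less between replicates than these libraries, whose common biological coefficient of variation was 1.656. That check therefore does not show what changes the test could find here. Symbols came from the normalized table or RefSeq (94.1% of IDs). No protein sequence was used here.

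Members and lists were chosen with earlier results of these data known. Named genes are the 10 members, Foxm1, and up to 3 tested genes per list with the smallest unadjusted p, with markers as sums; 1 such gene of the Gadd45 partners is not reported here. Untested genes are named by their counts, chosen after their values were seen. Alternatives tried were scaling by RLE, by upper quartiles or by library size alone, a prior count of 0.5, no filter, at least 10 counts in every library, a replicate block, DESeq2 1.42.0, limma-voom, the normalized table, and leaving out each library. Upper-quartile scaling of the list medians was added after seeing the data.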

Additional observations from a re-analysis of the deposited data

How the results depend on the processing

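No alternative brought any of the 8 genes past an adjusted or unadjusted p of 0.05, and of 116 refitted fold changes 97 kept their sign and 19 turned. Mdm2 and Ppp1r15a turned in none, but the genotypes of Ppp1r15a overlapped in the normalized table. Outside the left-out libraries, Trp53 turned to 0.99 with the replicate block, 1.299 with limma-voom and 1.73 in the normalized table, Mdm4 to -0.038 with RLE scaling and with DESeq2, and Zmat3 to 0.20 with upper-quartile scaling, 0.55 with library sizes alone, 0.0034 with the block and 0.21 with limma-voom. The cause was not tested.

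With 1 library left out, the fold change ran from -1.46 to 2.29 for Trp53, 1.32 to 3.16 for Mdm2, -0.58 to 0.63 for Mdm4, -0.05 to 3.17 for Cdkn1a, -0.40 to 0.63 for Ccng1, -6.43 to 0.25 for Gadd45a, -2.95 to -1.05 for Ppp1r15a and -4.39 to 0.96 for Zmat3. Leaving out WT replicate 3 turned the sign of Trp53, Mdm4, Cdkn1a, Gadd45a and Zmat3. List medians ran from -1.004 to 1.06 (arrest and repair), -3.64 to -0.99 (death and metabolism), -0.62 to 0.52 (Gadd45 partners), -0.94 to 0.42 (early response), -0.58 to 0.52 (regulators) and -1.19 to 0.24 (integrated stress response).

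Over all genes, 27 passed the adjusted threshold. The count was 10 with RLE, 43 with upper-quartile scaling, 7 with library sizes alone, 194 with DESeq2, 4 with limma-voom, 1 in the normalized table, 0 with at least 10 counts in every library (157 at an unadjusted p under 0.05) and 0 to 29 with 1 library left out. With the replicate block it was 0 (108 unadjusted). Same-numbered libraries deviated together at r of -0.0687 to 0.0162, and the sources name 3 pairs of mice without tying the replicate numbers to them, so the numbers were not taken to pair the libraries. The filter of 10 counts tested 4 of the members.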
